A study of Mus musculus with 6 samples.

Results

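The regions described here are stretches of chromatin that carried acetylated histone H3 lysine 9 (H3K9Ace) in 3T3-L1 adipocytes, but not in macrophages, and that held no adipocyte PPARγ. They were chosen by position from called region lists, and 29978 of the 49752 autosomal adipocyte H3K9Ace regions narrower than 10000 bp qualified, or 60.3% (95% interval 59.8 to 60.7). Each of them shared no base with a macrophage H3K9Ace region, and none with either deposited adipocyte PPARγ list, the final one or the longer one that combines 3 datasets by its name. These values chose the regions, so the absence of PPARγ and of macrophage acetylation is not a result here.

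The adipocyte libraries, for H3K9Ace and for PPARγ, came from 3T3-L1 cells, an established mouse preadipocyte line differentiated in culture. The macrophage libraries, for H3K9Ace, PU.1, C/EBPβ and PPARγ, came from primary peritoneal cells of male C57BL/6 mice. These cells were washed out 3 days after 1 ml of 3% thioglycollate, an irritant that draws macrophages into the cavity, and purified by adherence for 24 h. No genetic change and no other treatment is named for either cell type. Each of the 6 groups holds 1 library, from 1 sequencing run or, for macrophage PPARγ, 2 runs, and each macrophage run pooled cells of at least 4 animals. There are no replicates, so no p-value is given. Intervals are 95% intervals that cover counting error in these lists only and treat neighbouring regions as independent. The record descriptions name PPARγ as the target of all 6 libraries, so the targets were taken from the titles, which the antibody entries match. Neither these targets nor the cell types could be checked against marker genes in lists of positions. The depth of sequencing is unknown.

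Acetylation of H3 lysine 9 is laid down by histone acetyltransferases at active promoters and enhancers, where it loosens the contact of the histone tail with DNA and is read by bromodomain proteins. PPARγ is the nuclear receptor that drives fat cell differentiation, binding DNA as a heterodimer with RXR and recruiting acetyltransferases. PU.1 is an ETS-family factor that sets up enhancers in myeloid cells. C/EBPβ is a leucine-zipper factor that acts early in fat cell differentiation and also works beside PU.1 in macrophages.

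PPARγ-free adipocyte-only regions made up 60.3% of the list by number but a smaller part of its length. They covered 32.9 Mb, 32.8% of the 100.1 Mb acetylated in adipocytes. Of all 34380 adipocyte-only regions, 87.2% lacked PPARγ (86.8 to 87.6). Regions acetylated in both cell types lacked it in 84.5% of 15372 cases (83.9 to 85.1). This order was not kept at matched width. At 750 to 950 bp, 7543 adipocyte-only regions lacked PPARγ and 521 overlapped it, against 1194 and 87 acetylated in both. There the order was as over all widths, by a small margin, and in no other bin was it so. At 500 to 700 bp the counts were 10896 and 475 against 1381 and 53, the reverse order by a small margin. The counts were 1723 and 779 against 2583 and 388 at 2000 to 2950 bp. They were 281 and 417 against 1474 and 779 at 5000 to 9950 bp. In these wider bins, as in every bin but that of 750 to 950 bp, adipocyte-only regions lacked PPARγ less often. The other classes of the same list, all autosomal and under the same width limit, serve for comparison. They are 4402 adipocyte-only regions that overlap PPARγ, 12992 regions acetylated in both cell types without PPARγ, here called shared regions, and 2380 acetylated in both with PPARγ.

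The regions were narrow. Their median width was 850 bp, with quartiles of 650 and 1150 bp, against 1675 bp in PPARγ-bound adipocyte-only regions and 2300 bp in shared regions. Widths under 1000 bp were found in 18439 of the 29978 regions (61.5%), in 22.6% of PPARγ-bound adipocyte-only regions and in 19.8% of shared regions. Only 1100 of them, 3.67%, reached 3000 bp. A wider region meets any other list more easily, so the rule itself favours narrow ones. By width, the class held 85.1% of all adipocyte regions of 500 to 700 bp, 53.1% of those of 1500 to 1950 bp and 9.52% of those of 5000 to 9950 bp.

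The width distribution had peaks at 500 bp and at 1000 bp. The smallest width in the list, 500 bp, was that of 3176 regions, or 10.6%. Exactly 1000 bp was found in 2428 regions, against 1596 at 950 bp and 650 at 1050 bp. The peak was not confined to this class: 252 PPARγ-bound adipocyte-only regions and 493 shared regions were 1000 bp wide, against 84 and 166 at 1050 bp. In the macrophage list the corresponding peak lay at 1100 bp, with 2048 regions there and 779 at 1150 bp. All starts and ends in both acetylation lists lie on a 50-bp grid. Whether these peaks come from the calling of regions was not tested.

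**Figure D1:**
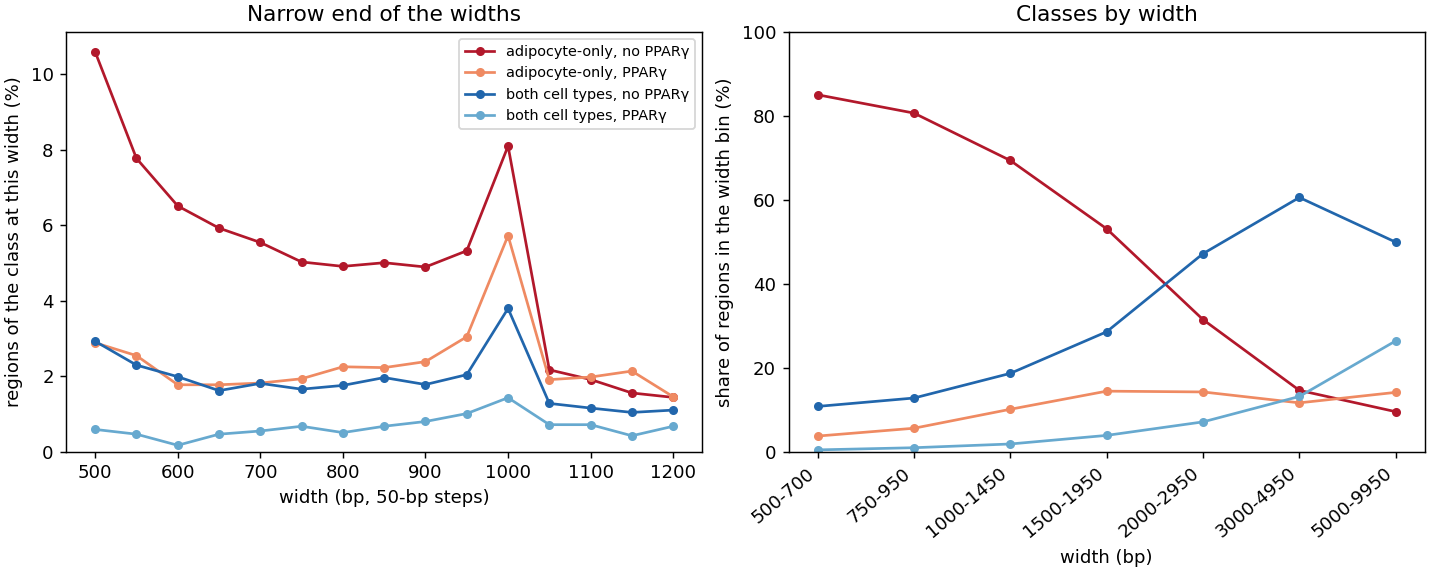
Left, the percentage of regions of each class at each width from 500 to 1200 bp in 50-bp steps. Right, the percentage of adipocyte H3K9Ace regions in each width bin that belongs to each class. The PPARγ-free adipocyte-only class has 10.6% of its regions at 500 bp and 8.10% at 1000 bp, and its share of a bin falls from 85.1% to 9.52% as width grows.

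The widest regions inside were 9950 bp wide, at chr15:78920151-78930100 and chr19:10968001-10977950 (mm8, as all positions given). The first held 1 PU.1 region and the second held neither macrophage factor. The next were chr6:94645601-94655350, chr6:88735051-88744550, chr8:123112151-123121550 and chr19:10161551-10170700, 9150 to 9750 bp wide and none of them with PU.1 or C/EBPβ. The region chr6:88735051-88744550 lay 1074 bp from the nearest PPARγ region, the others of these 6 at least 9520 bp away. Only 25 of the 744 wider autosomal regions met the rest of the rule. The narrowest of those were 10300 bp (chr12:31849101-31859400) and 10400 bp (chr11:78914251-78924650 and chr17:28070151-28080550).

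Measured to either list, adipocyte PPARγ lay within 100 kb of most regions. The median gap from edge to edge was 16227 bp to the nearest region of either PPARγ list, with quartiles of 5128.5 and 45603.8 bp. The nearest PPARγ lay within 1 kb of 1745 regions (5.82%, 5.56 to 6.09), within 10 kb of 11514 (38.4%, 37.9 to 39.0) and within 100 kb of 26743 (89.2%, 88.8 to 89.6). Shared regions, which lack PPARγ by the same rule, lay farther off, at a median of 34199 bp, with 23.1% within 10 kb (22.3 to 23.8) and 77.6% within 100 kb (76.8 to 78.3). Against the final PPARγ list alone, 12.7% of the PPARγ-free adipocyte-only regions had PPARγ within 10 kb and 53.3% within 100 kb. The medians against that list were 86783 bp for the PPARγ-free adipocyte-only regions and 172482 bp for shared regions. Both medians are thus set largely by the choice of list, while the order of the classes was the same with either.

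Wider regions of the class lay nearer to PPARγ. The median gap to either list was 19422.5 bp for those of 500 to 700 bp, 14531 bp for those of 1000 to 1450 bp, 12477 bp for those of 2000 to 2950 bp and 9422 bp for those of 5000 to 9950 bp. Shared regions of the same widths had medians of 22905, 27423, 49234 and 26502 bp, which follow no such order. At equal width the difference between the classes was thus small among the narrowest regions and larger above.

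**Figure D2:**
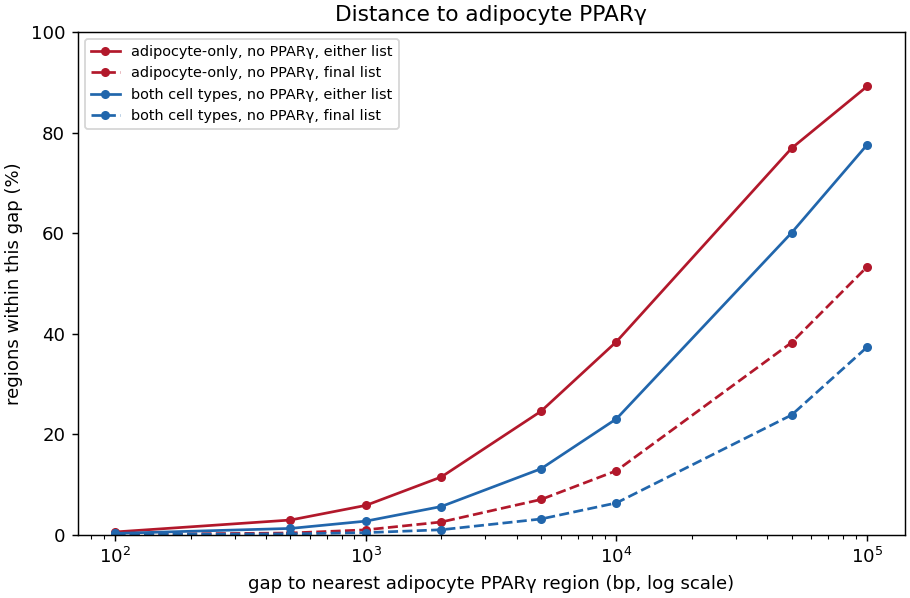
The percentage of regions (vertical axis) within each gap of the nearest adipocyte PPARγ region (horizontal axis, log scale), for PPARγ-free adipocyte-only regions and for shared regions, with either PPARγ list (solid) or the final list alone (dashed). The adipocyte-only curve lies above the shared curve, at 38.4% against 23.1% within 10 kb of either list.

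The PPARγ site nearest to a region overlapped another acetylated region for 23850 of the 29978 (79.6%, 79.1 to 80.01), and for 1251 of the 1745 within 1 kb (71.7%, 69.5 to 73.7). Most PPARγ regions overlap adipocyte acetylation in any case. Of the autosomal PPARγ regions, 487 of 2610 in the final list (18.7%) and 3961 of 12165 in the combined list (32.6%) lay outside it. Of those 487, 87 had a PPARγ-free adipocyte-only region within 1 kb (17.9%, 14.7 to 21.5). Of the 3961 in the combined list 445 did (11.2%, 10.3 to 12.3).

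The regions nearest to the receptor missed it by a few bases. Those at chr7:15117301-15118250, chr15:76804601-76805650, chr16:4846251-4847700 and chr18:12208251-12209750 had gaps of 2 bp to the combined list. Gaps of 3 bp were found at chr8:4314051-4315000 and chr16:10888101-10889450. The start convention of the combined list is not stated, so these gaps may be 1 bp off. None of these 6 held PU.1 or C/EBPβ. In all, 160 regions lay within 100 bp of PPARγ, while 166 adipocyte-only regions counted as PPARγ-bound by an overlap of at most 100 bp. At the other end, a pair of narrow regions, chr3:75998251-75998850 and chr3:76038051-76038600, lay 3248162 and 3208412 bp from any PPARγ region. The next 4 lay close together on chromosome 7 between 11911651 and 11952600, at least 2838642 bp away, and 1 of them held PU.1. These far regions were still 450 to 42400 bp from macrophage acetylation.

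Macrophage acetylation, with 37263 regions a longer list than the 12430 combined PPARγ regions, was also closer. The median gap to the nearest macrophage H3K9Ace region was 7550 bp, with quartiles of 2300 and 25700 bp, and 12.2% of the regions had one within 1 kb (11.8 to 12.6). PPARγ-bound adipocyte-only regions lay farther from it, at a median of 17500 bp with 5.18% within 1 kb (4.56 to 5.87). At the edge of the rule, 118 of the PPARγ-free regions touched a macrophage region without sharing a base and 286 more were at most 100 bp off, while 255 regions counted as shared by an overlap of at most 100 bp.

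Within the adipocyte list the regions lay beside each other slightly more often than their share of the list. The nearest other acetylated region was a median of 850 bp away, with 36.9% having one within 500 bp. Shared regions were much alike at this short range, at 1050 bp and 35.8%. Farther out they were less crowded, with 70.7% having another acetylated region within 5000 bp against 83.6% of the class. The upper quartiles of the gap were 8150 and 2600 bp. The nearest PPARγ-free adipocyte-only region was a median of 1950 bp from another of the class and 4900 bp from a shared region. Of the flanking regions on either side, 63.7% belonged to the class, which makes up 59.4% of all autosomal adipocyte regions, widths of 10000 bp and over included. Among the 29966 with a neighbour on each side, both neighbours did in 42.1%. Joined where gaps were at most 5000 bp, 19972 of the regions (66.6%) fell into 6301 runs of at least 2, and 6398 (21.3%) into 961 runs of at least 5. No such share of paired neighbours or of runs is given for other classes, so neither is shown to be a trait of this class.

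The longest run had 20 regions over 58.65 kb, chr12:108657501-108716150, with 32.45 kb acetylated. It held no PU.1, no C/EBPβ, no PPARγ and no macrophage acetylation. The nearest PPARγ was 2119 bp and the nearest macrophage acetylation 28800 bp from any of its regions. Runs of 18 lay at chr6:91161201-91218000, chr8:47997751-48049650, chr9:56646351-56698550 and chr12:16566751-16608800. In these 4 runs of 18 regions, 2 regions in all held PU.1 and 1 held C/EBPβ. Over all regions in runs of at least 5 the shares were 3.83% and 1.63%. Counts this small, in the longest run too, do not set these runs apart. The run on chromosome 9 spanned 2 PPARγ regions in the gaps between its acetylated parts. The run on chromosome 8 spanned 1 macrophage acetylated region.

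Regions in runs of at least 5 were wider, at a median of 950 bp, than those standing alone, at 800 bp. They lay closer to PPARγ, at 13507 bp against 23761.5 bp, and farther from macrophage acetylation, at 11100 bp against 5850 bp. PU.1 was found in 3.83% of regions in such runs (3.39 to 4.33) and in 5.16% of the single ones (4.74 to 5.61). C/EBPβ was found in 1.63% (1.34 to 1.97) and in 3.09% (2.77 to 3.45).

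By 1-Mb windows the class was unevenly spread, and no like spread of the whole adipocyte list is given to set beside it. A window with any such region held a median of 10, and 156 windows with 50 or more held 10404 of the regions, or 34.7%. The fullest window was on chromosome 6 from 72 to 73 Mb, with 118 such regions among 150 adipocyte and 37 macrophage acetylated regions and 28 combined-list PPARγ regions. Chromosome 2 from 30 to 31 Mb held 116 among 155 adipocyte regions, and chromosome 15 from 99 to 100 Mb held 115 among 152. Chromosome 8 held 108 among 172 from 73 to 74 Mb and 99 among 150 from 108 to 109 Mb. PU.1 lay in 1 to 7 of the regions in each of these windows.

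The share of a chromosome's adipocyte regions that fell in the class ranged from 51.1% on chromosome 13 (48.7 to 53.6) to 68.0% on chromosome 6 (66.6 to 69.4). Chromosomes 15 and 19 followed chromosome 6 with 67.2% and 64.8%, and chromosomes 3 and 10 were low beside chromosome 13, with 51.6% and 53.3%. Chromosome 6 alone held 2906 of the regions, 9.69%, and 5.65% of the autosomal macrophage regions, or 1.40 for each macrophage region there. It also held 8.59% of the adipocyte list from which the class was taken. Chromosome 10 had 0.489 for each, with 3.48% of the class and 3.93% of the adipocyte list. The median width on a chromosome stayed between 800 and 900 bp and was 900 bp on chromosomes 6, 15, 17 and 19. Chromosome 6 also held 1163 of the combined PPARγ regions and had the shortest median gap to PPARγ, 12047 bp. The part of region calling or DNA content in this spread was not tested.

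**Figure D3:**
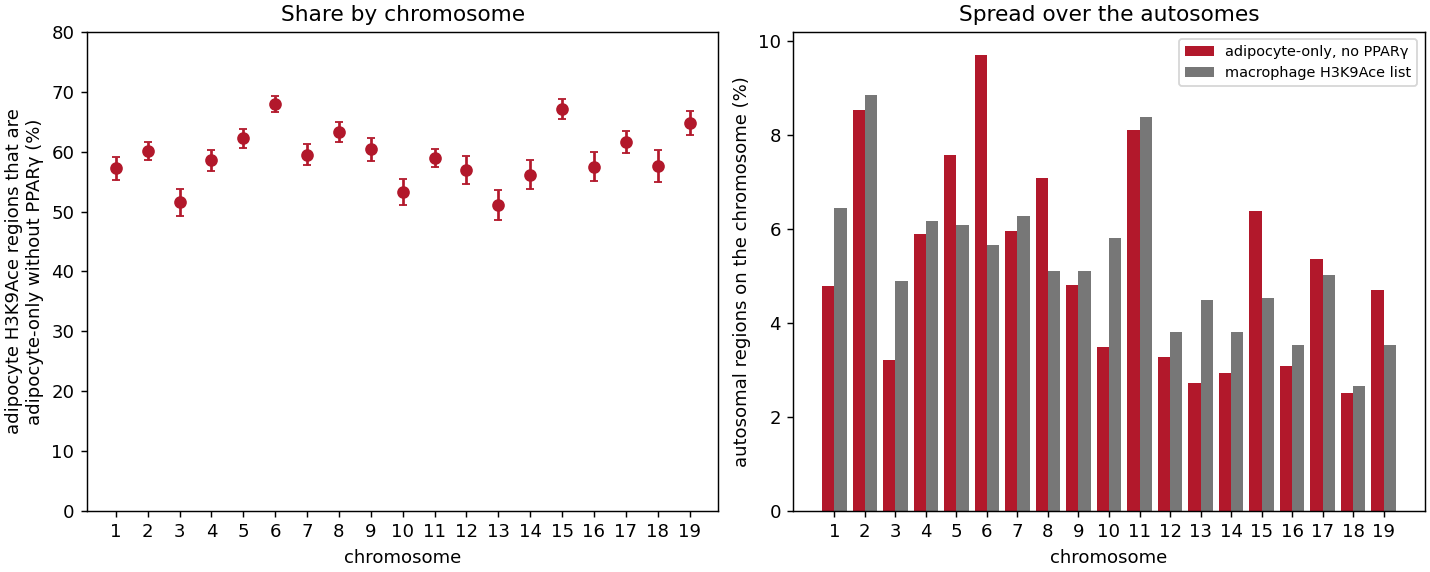
Left, the percentage of each autosome's adipocyte H3K9Ace regions under 10000 bp that are PPARγ-free and adipocyte-only, with 95% Wilson intervals; chromosome 6 is highest at 68.0% and chromosome 13 lowest at 51.1%. Right, the percentage of these regions and of autosomal macrophage H3K9Ace regions on each chromosome, with 9.69% and 5.65% on chromosome 6. The whole adipocyte list, not drawn, has 8.59% there.

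The presence of macrophage PU.1 and C/EBPβ was not used directly to choose the regions, and both were rare in them. The rule did leave out regions with macrophage acetylation, where both factors were commoner, so their rarity is not independent of the choice. PU.1 overlapped 1339 of the 29978 PPARγ-free adipocyte-only regions, or 4.47% (4.24 to 4.71), with 17.4% over all 49752 adipocyte regions of the list. C/EBPβ lay in 736 (2.46%, 2.29 to 2.64), with 12.4% over the whole list. Either factor was present in 1760 (5.87%, 5.61 to 6.14), against 21.8% of the list, and 28218 regions held neither. Shared regions carried PU.1 in 42.8% of cases (42.0 to 43.7) and C/EBPβ in 29.9% (29.1 to 30.7). The PPARγ-free adipocyte-only share was lower by a difference of -38.4 percentage points for PU.1 (-39.2 to -37.5) and -27.4 for C/EBPβ (-28.3 to -26.7). These libraries are of macrophages, so a factor inside one of these regions was bound there in cells where the region carried no called acetylation.

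At matched width the contrast with shared regions remained. Among regions of 500 to 700 bp PU.1 lay in 3.17% of PPARγ-free adipocyte-only regions (2.85 to 3.51) and 26.1% of shared regions (23.9 to 28.5). Among those of 5000 to 9950 bp it lay in 9.96% (6.98 to 14.0) and 62.5% (59.98 to 64.9). The difference was -23.0 points in the narrowest bin and -52.5 points in the widest, and it lay between these values in the other 5. The C/EBPβ difference ran from -15.5 to -39.2 points over the same bins.

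Against PPARγ-bound adipocyte-only regions both factors were rarer over all widths, and at matched width the C/EBPβ difference was the larger. Without regard to width, PPARγ-free regions carried less of both: 4.47% against 7.72% for PU.1, a difference of -3.26 points (-4.11 to -2.47), and 2.46% against 7.88% for C/EBPβ, a difference of -5.43 points (-6.28 to -4.65). At matched width the PU.1 difference was -2.10 points at 500 to 700 bp (-4.51 to -0.389) and -3.12 at 750 to 950 bp (-5.69 to -1.16). In each of the 5 bins from 1000 bp up its interval included 0, and it was 0.287 points at 3000 to 4950 bp (-2.88 to 3.36). Such intervals do not show that the shares are equal. The C/EBPβ difference stayed between -5.71 and -3.29 points in all 7 bins, and its interval included 0 only in the widest, at 5000 to 9950 bp (-6.83 to 0.550). Per length, PU.1 centres numbered 36.3 per Mb in PPARγ-free adipocyte-only regions (34.2 to 38.4) and 34.3 per Mb in PPARγ-bound ones (30.8 to 38.1), whereas C/EBPβ centres numbered 19.6 (18.1 to 21.2) and 33.7 per Mb (30.2 to 37.5). Shared regions held 203.5 PU.1 and 127.3 C/EBPβ centres per Mb.

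**Figure D4:**
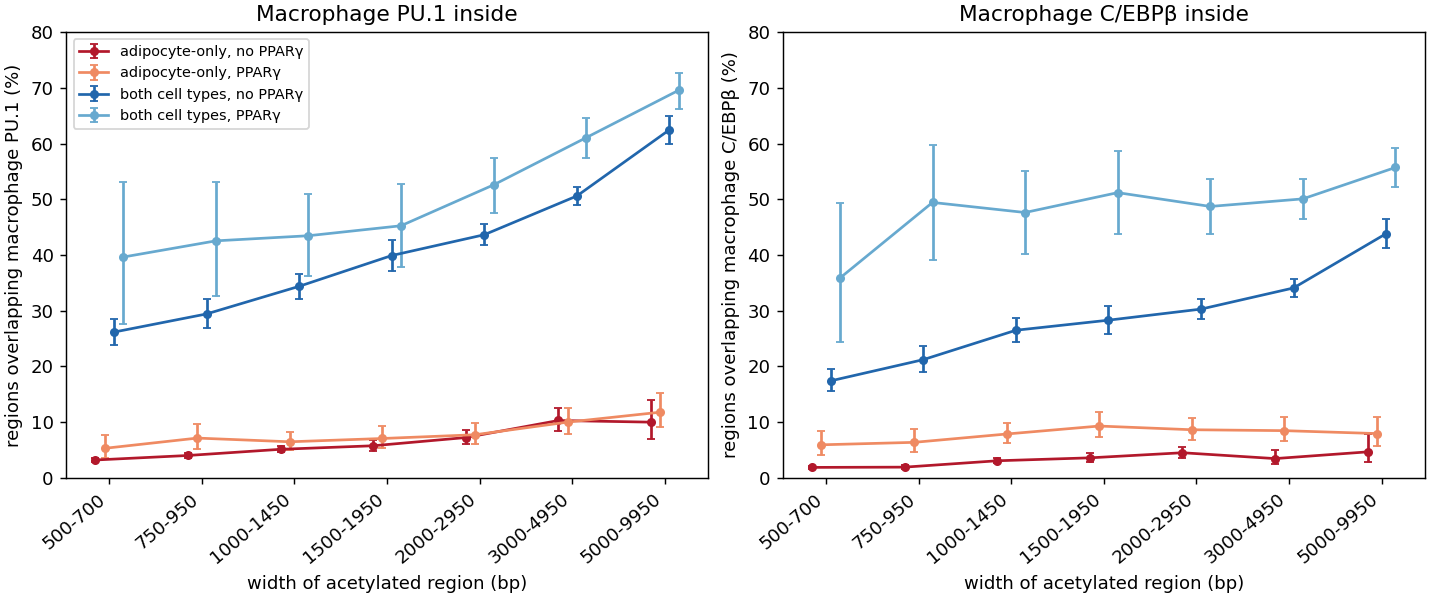
The percentage of adipocyte H3K9Ace regions of each width bin that overlap macrophage PU.1 (left) or C/EBPβ (right), with 95% Wilson intervals, for the 4 classes of the list. PPARγ-free adipocyte-only regions lie lowest or level with PPARγ-bound adipocyte-only regions, at 3.17% to 10.3% for PU.1 and 1.84% to 4.63% for C/EBPβ, far under both classes acetylated in both cell types.

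Both factors became rarer with distance from macrophage acetylation. PU.1 lay in 8.03% of the PPARγ-free adipocyte-only regions less than 1 kb from a macrophage H3K9Ace region (7.17 to 8.98), in 4.63% of those 5 to 10 kb away (4.05 to 5.28) and in 1.59% of those at least 100 kb away (1.17 to 2.17). C/EBPβ lay in 3.63% (3.06 to 4.30), 2.68% (2.25 to 3.18) and 0.775% (0.497 to 1.21) of the same regions. The median width was 850 or 900 bp in every distance bin. The decline was seen at either width: PU.1 lay in 6.79% of regions under 1000 bp that were less than 1 kb away and in 1.12% of those at least 100 kb away, and for regions of 1000 bp or more these shares were 10.0% and 2.24%.

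Distance to adipocyte PPARγ gave another picture. Over all widths C/EBPβ stayed between 2.12% and 2.58% in every bin, and PU.1 between 4.02% and 5.42%. Within width classes the course was less even. Among regions of 1000 bp or more PU.1 lay in 8.56% of those less than 1 kb from PPARγ (6.79 to 10.8) and in 4.595% of those at least 100 kb away (3.46 to 6.08). It was not a steady fall, with 4.81% at 5 to 10 kb and 6.40% at 20 to 50 kb. Among regions under 1000 bp it lay in 2.57% (1.75 to 3.77) and in 3.85% (3.13 to 4.73). The intervals of the wider pair do not overlap, and those of the narrower pair do. C/EBPβ lay in 2.08% of the wider regions less than 1 kb from PPARγ (1.28 to 3.34) and in 4.30% of those at least 100 kb away (3.21 to 5.74), with 2.16% (1.42 to 3.28) and 1.70% (1.24 to 2.33) among the narrower ones. Both C/EBPβ pairs have intervals that overlap. An overlap of intervals, here and for PU.1, does not show that the shares are equal, and no interval of these differences is given.

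Because PPARγ-bound adipocyte-only regions lie farther from macrophage acetylation, both classes were also set side by side at like distances, a comparison added after seeing the data. Under 5 kb from macrophage acetylation PU.1 lay in 6.10% of PPARγ-free regions (5.68 to 6.53) and 13.8% of PPARγ-bound ones (11.8 to 16.0). C/EBPβ lay in 3.22% (2.92 to 3.55) and 13.3% (11.4 to 15.5). From 50 kb on, PU.1 lay in 1.62% and 2.66%, with a difference of -1.04 points (-2.14 to -0.178), and C/EBPβ in 0.886% and 2.42%, with a difference of -1.53 points (-2.57 to -0.748). The PU.1 difference at like distance also held among regions of at least 1000 bp, at -6.05 points under 5 kb (-8.72 to -3.67) and -2.76 points from 5 to 50 kb (-4.31 to -1.35). From 50 kb on it was -0.600 points there (-2.00 to 0.590). PPARγ-bound regions of at least 1000 bp are also wider than PPARγ-free ones, and width and distance were not matched together more finely.

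**Figure D5:**
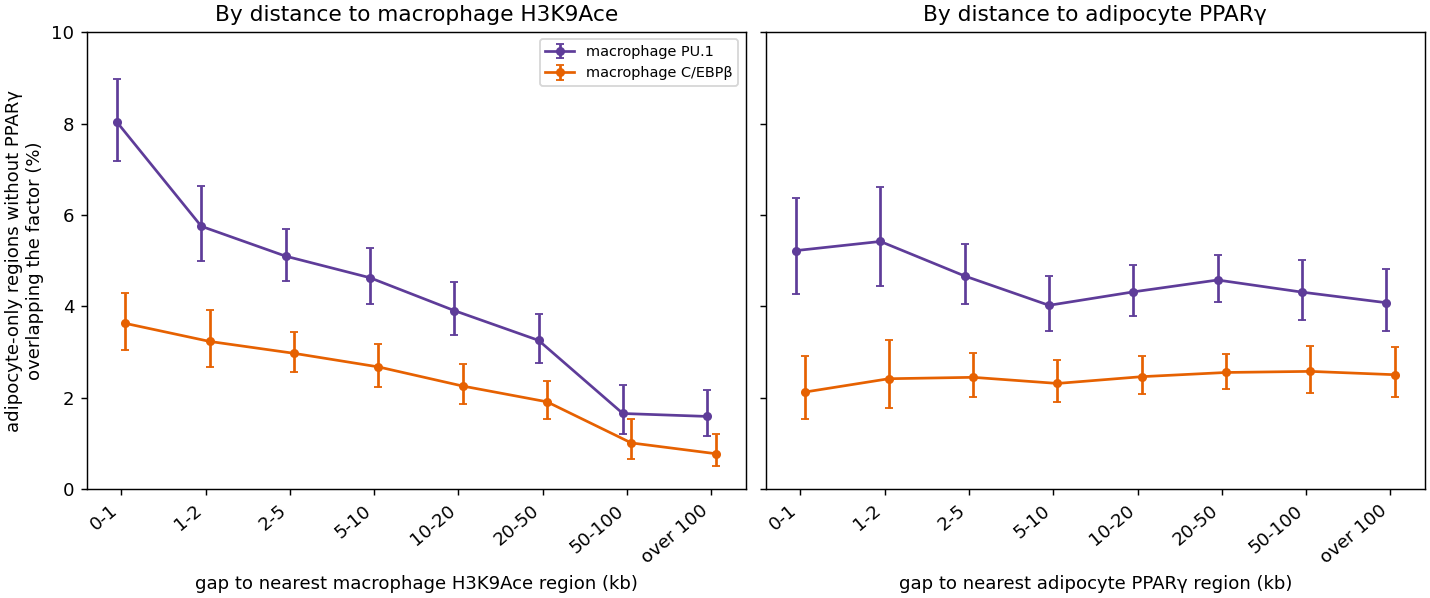
The percentage of PPARγ-free adipocyte-only regions that overlap macrophage PU.1 or C/EBPβ, with 95% Wilson intervals, by the gap in kb to the nearest macrophage H3K9Ace region (left) or adipocyte PPARγ region (right). PU.1 falls from 8.03% to 1.59% with distance from macrophage acetylation, and over all widths both factors stay level with distance from PPARγ, at 4.02% to 5.42% and 2.12% to 2.58%.

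Both factors lay in 315 of the 29978 regions (1.05%, 0.942 to 1.17; 7.98% over the whole list), PU.1 alone in 1024 (3.42%; 9.4% over the list) and C/EBPβ alone in 421 (1.40%; 4.46% over the list). C/EBPβ accompanied PU.1 in 23.5% of the regions with PU.1 and lay in 1.47% of those without it. Over the whole list it accompanied PU.1 more often, in 45.9% of regions with PU.1, with 39.7% in PPARγ-bound adipocyte-only regions and 46.5% in shared regions. C/EBPβ was also commoner without PU.1 there, at 5.40% over the list, 5.22% in PPARγ-bound adipocyte-only regions and 17.5% in shared regions. The odds ratio between PU.1 and C/EBPβ was 20.6 in the PPARγ-free adipocyte-only class. It was 14.85 over the list, 11.96 in PPARγ-bound adipocyte-only regions and 4.095 in shared regions. By that measure the factors were tied more closely in this class over all widths. The ratios have no intervals and were not matched for width, and the class is the narrowest. At 2000 to 2950 bp PU.1 lay in 124, C/EBPβ in 77 and both in 32 of 1723 regions of the class. In PPARγ-bound adipocyte-only regions of that width these counts were 60, 67 and 27 of 779. There the ratio was not higher in the class, so a closer tie is not shown to be its trait. In 286 of the 315 regions with both, a PU.1 and a C/EBPβ region overlapped (90.8%, 87.1 to 93.5), and the median spacing of the closest centres was 42 bp. In PPARγ-bound adipocyte-only regions with both, 83.7% had such an overlap (76.6 to 89.0), an interval that overlaps the one before, and the median spacing was 49 bp. In shared regions with both factors 79.2% had such an overlap (77.6 to 80.8) and the median spacing was 66.5 bp, in regions that are wider. Regions with both factors lay closest to macrophage acetylation, at a median of 2650 bp, against 4375 bp with PU.1 alone, 5650 bp with C/EBPβ alone and 7850 bp with neither.

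Most regions with a factor held a single one. Of the 1339 with PU.1, 1281 overlapped 1 PU.1 region and 58 overlapped 2. Of the 736 with C/EBPβ, 709 overlapped 1, 26 overlapped 2 and 1 overlapped 3. That region, chr14:24621901-24624400, also held 1 PU.1 region and lay 950 bp from macrophage acetylation. Regions with 2 of each factor lay at chr4:135395101-135396350, chr5:93354551-93355700 and chr15:74757451-74758350. With 1 PU.1 and 2 C/EBPβ regions each followed chr10:79095651-79099950 and chr18:5132801-5136400. All 6 were within 5050 bp of a macrophage acetylated region.

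Inside the regions the factors were spread with a mild tilt to the middle. The middle 40% of a region's length held 536 of 1192 PU.1 centres (45.0%, 42.2 to 47.8) and the outer 20% held 175 (14.7%, 12.8 to 16.8). For C/EBPβ these shares were 43.0% and 14.9% of 644 centres. In shared regions the middle held 48.9% of PU.1 centres (47.7 to 50.04) and the outer part 11.4% (10.7 to 12.1). Seen from the factor lists, 3.005% of the 46356 PU.1 regions and 3.11% of the 24421 C/EBPβ regions overlapped a PPARγ-free adipocyte-only region.

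Macrophage PPARγ, which the rule did not use directly either, was present in few of the regions. The final macrophage list overlapped 25 of the 29978 (0.0834%, 0.0565 to 0.123), with 1.18% over the whole adipocyte list, and the longer macrophage list overlapped 464 (1.55%, 1.41 to 1.69), with 8.04% over the whole list. PPARγ-bound adipocyte-only regions met the longer list in 4.998% of cases (4.39 to 5.68) and shared regions in 17.9% (17.2 to 18.6). The authors' fold of the 25 final-list sites inside ranged from 5 to 11.15 with a median of 6.46. Of the 25 regions, 14 held PU.1 (56%, 37.1 to 73.3), 9 held C/EBPβ (36%, 20.3 to 55.5), 7 held both and 9 held neither. Counted by site, PU.1 overlapped 48% of the 25 final-list sites and C/EBPβ 32%. In shared regions these shares were 64.7% and 57.8% of 187 sites. In PPARγ-bound adipocyte-only regions they were 44.9% and 69.4% of 49 sites. Company of these factors at such sites is thus not particular to this class.

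The final-list site with the highest authors' fold, 11.15, lay at chr6:115438425-115439009, inside the region chr6:115437551-115440950, which held neither PU.1 nor C/EBPβ. A further site nearby, chr6:115405408-115405765 with a fold of 10.6, lay in a region likewise without either factor. PU.1 without C/EBPβ accompanied those at chr15:76140560-76141013 (fold 10.8), chr15:61884750-61885025 (fold 9.88) and chr2:163274934-163275719 (fold 9.59). Both factors accompanied the site at chr17:83640396-83640774 (fold 8.77). The regions around these 6 sites lay 395 to 14691 bp from adipocyte PPARγ.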

How the data were processed

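ChIP-seq region lists of 6 libraries were used. Per the labels' protocols, ELAND placed 36-bp reads on mm8 with at most 2 mismatches, and reads without a unique best match were dropped. Per the series design text, areas of input bias were removed before the final lists were made. The sources used here do not give the peak caller settings or the control. Per the file headers, all PPARγ lists but the combined adipocyte one carry the authors' fold (a ratio), peak height (a signal) and false discovery rate, read as a percent. The other deposited lists give positions only.

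From these, 20 repeated adipocyte H3K9Ace rows were dropped, leaving 51257 regions, of which 761 off the autosomes and 744 of 10000 bp or more were left out. None of the 29978 regions overlapped a masked interval. Starts were taken as counted from 0 in every list. In the final PPARγ lists widths equal end minus start, but for the combined and PU.1 lists the convention is not stated, so their gaps may be 1 bp off. Overlap means at least 1 bp, and gaps run from edge to edge. Shares carry Wilson intervals, their differences Newcombe intervals and densities exact Poisson intervals, all 95%. The interval code was tested on simulated data. Regions named are the 6 widest, the 6 with most PU.1 and C/EBPβ, the 6 nearest to and 6 farthest from PPARγ, the 5 longest runs, the 5 fullest 1-Mb windows, the 6 with the highest macrophage PPARγ fold, and those at the width limit. The regions, classes and lists were chosen with earlier results of these data known. Coordinates are 1-based mm8. Genes and sequence at these positions were not analysed here, as no mm8 genome or annotation was used. Python 3.11.15, numpy 2.4.6, pandas 2.3.3 and scipy 1.17.1 were used.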

Additional observations from a re-analysis of the deposited data

Results flagged for a closer look

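Chromosome X was left out of the class, yet 357 of its 760 adipocyte H3K9Ace regions under 10000 bp met the rest of the rule (47.0%). They were set apart because the report's comparisons do not use them. Their share lies below that of every autosome, which ran from 51.1% to 68.0%. Their median width was 800 bp, 16 of them held PU.1 (4.48%) and 12 held C/EBPβ (3.36%). With chromosome X counted in, the class had 30335 regions, of which 4.47% held PU.1 and 2.47% held C/EBPβ.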

How the results depend on the processing

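All 50 recomputed differences between PPARγ-free adipocyte-only regions and the PPARγ-bound or shared ones stayed below 0. None of the 50 was matched for width, and those with the combined PPARγ list alone equal the reported ones. At matched width the PU.1 difference from PPARγ-bound regions had an interval that included 0 in every bin from 1000 bp up. It was 0.287 points at 3000 to 4950 bp (-2.88 to 3.36). Of 123 recomputed values, 45 fell outside the 95% interval of the value reported, and the cause was not tested. The number of regions, which has no such interval, was 21397 with acetylated regions up to 500 bp apart joined, 24971 where regions within 1000 bp of another list also counted as overlapping, 33236 with the final PPARγ list alone and 33776 with its upper 50% by fold, against 29978 as reported. Under the other settings it lay between 29697 and 30669. In the order PU.1, C/EBPβ and either factor, the shares were 4.74%, 2.91% and 6.43% with the final PPARγ list alone, 4.82%, 3.04% and 6.58% with its upper 50% by fold, 4.77%, 2.82% and 6.40% with acetylated regions up to 500 bp apart joined, and 3.83%, 2.08% and 5.04% where a factor's centre had to lie inside. Where regions within 1000 bp of another list also counted as overlapping, PU.1 lay in 3.97% and either factor in 5.39%. The differences from shared regions, PU.1 before C/EBPβ, were -39.97 and -29.4 points with the final list, -40.2 and -29.6 with its upper part, -40.9 and -29.4 when joined, -37 and -26.3 by centre, -31.7 and -22.2 with the 1000-bp margin and -35.9 and -25.7 under a width limit of 5000 bp. Those from PPARγ-bound regions were -4.26 and -7.23 with the final list, -6.40 for C/EBPβ with its upper part, and -2.47 and -3.52 with the margin. By distance from macrophage acetylation, bins chosen after seeing the data, they were -7.68 and -10.1 under 5000 bp and -1.04 and -1.53 from 50000 bp on. The median gap to PPARγ was 86643.5 bp with the final list, 202550 bp with its upper part, 17496 bp with the margin and 18284 bp when joined. The median gap to macrophage acetylation was 8150, 8250, 9550 and 9300 bp in the same order, and the median width was 900 bp with the final list and with its upper part. No paired analysis was possible because each group has 1 library. Read depth is unknown, so a region absent from a list may be one that was not detected.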
